A study of Mus musculus with 43 samples.

Results

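The 9 genes described here encode proteins of the complement system and the receptors that read its products. They are C1qa, C1qb, C1qc, C3, C4b, C3ar1, C5ar1, Serping1 and Itgam, 9 of the 55416 genes counted in each of 43 RNA-seq libraries. The genes were chosen by name and not by a rule on their values, though earlier results of these data were known. The libraries held oligodendrocytes, oligodendrocyte precursor cells (OPCs), astrocytes or microglia, purified from the cortical grey matter of 3-month-old mice by immunopanning, in which an antibody fixed to a dish captures cells by a protein on their surface. Immunodeficient Rag2-/- mice, which make no mature T or B lymphocytes, were set against immunocompetent littermates in 6 numbered pairs. The deleted Rag2 allele, B6.Cg-Rag2tm1.1Cgn/J on C57BL/6J, is carried by every cell of the animal, and most controls carried it on a single chromosome: the controls of pairs 1, 2, 3 and 5 were Rag2+/- and those of pairs 4 and 6 Rag2+/+. Pairs 1, 3 and 4 were male and pairs 2 and 5 female, and pair 6 held a male control and a female Rag2-/- mouse. Astrocytes and microglia each gave 6 control and 6 Rag2-/- libraries, OPCs gave 6 and 5, and oligodendrocytes gave 4 and 4, from pairs 1, 3, 5 and 6. Each library was 1 cell type from 1 mouse, all libraries of 1 cell type ran on 1 sequencing lane, so that lane and cell type cannot be told apart, and the 4 cell types of a mouse came one after another from a single suspension.

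Complement is a cascade of proteins that tag surfaces for removal. In its classical branch, C1q, built from the products of C1qa, C1qb and C1qc, binds a target and activates the proteases C1r and C1s, which cut C4 (C4b in the mouse) and C2. The resulting convertase cuts C3, whose large fragment stays on the target and is bound by complement receptor 3, the pair of integrin chains Itgam (CD11b) and Itgb2. The small fragments released from C3 and C5 signal through the G protein-coupled receptors C3ar1 and C5ar1, and Serping1, the C1 inhibitor, blocks C1r and C1s. In the brain, microglia are known as a source of C1q and as carriers of complement receptor 3, and the pathway is known for its part in the removal of synapses during development, while C4 and C3 are known to rise in reactive astrocytes.

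In GRCm39, with the GENCODE M39 gene models, the 3 C1q genes lie side by side on the minus strand of chromosome 4. C1qb spans positions 136606009 to 136613511, C1qc 136616466 to 136620376 and C1qa 136623223 to 136626161. C4b (34947354 to 34962912) and C3 (57510964 to 57535155) are both on the minus strand of chromosome 17. C3ar1 is on chromosome 6 (122823393 to 122833122, minus strand), Serping1 on chromosome 2 (84595705 to 84620873, minus strand), and chromosome 7 holds C5ar1 (15980668 to 15993465, minus strand) and Itgam (127661808 to 127717753, plus strand). All 9 are protein-coding, and the values below count read pairs over all their exons. Of the 3426 windows of 50 bases within the exons of the canonical transcript of C4b, 32.8% occur elsewhere in the genome, and the near-identical copy C4a is known to lie beside it. How the counting treated read pairs with several matches is not given in the sources used here, so the C4b level is uncertain. For Itgam, 67.4% of its exonic bases are shared on the same strand with the predicted gene Gm49368, and read pairs there may have been called ambiguous, so its level is uncertain. The other 7 genes had at most 0.545% of their windows repeated.

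Library totals ran from 6499417 to 23118497 read pairs on genes. Mitochondrial genes took 45.8% to 60.1% of these in oligodendrocytes, 22.5% to 45.1% in astrocytes, 22.4% to 36.7% in OPCs and 6.75% to 11.7% in microglia. Levels are given as CPM, in which a gene's read pairs are scaled to the library's total on all genes, and which this share lowers most in oligodendrocytes. Fold changes come from edgeR with TMM scaling and are log2 values ± SE, with the SE worked back from the test's F statistic. Rag2 itself had 0 counts in all 21 Rag2-/- libraries and in 19 of 22 control libraries, so it does not check the genotypes here. The panned cells carried the markers of their label, but their libraries also held markers of other types. Summed astrocyte markers averaged 4477 ± 1563 CPM (SD, n = 11) in OPCs, beside 4348 ± 611 for OPC markers. Summed oligodendrocyte markers averaged 4283 ± 554 CPM (n = 12) in astrocytes, beside 20590 ± 1796 for astrocyte markers. Their part in the levels below was not tested. All 6 microglia markers that are not among the 9 genes (Tmem119, Ptprc, Cd68, P2ry12, Aif1 and Cx3cr1) summed to 3409 to 3989 CPM in microglia. The same sum was 29.8 to 91.9 CPM in astrocytes, 76.3 to 372.7 in OPCs and 80.5 to 308.9 in oligodendrocytes. Its highest values in all 3 of these types were in both libraries of pair 3, and no source used here says why these animals differ. Ptprc encodes CD45, the protein used to pan microglia. Summed markers of border macrophages, which also carry CD45, were at 390 to 888 CPM in microglia, and their part in the values below was not tested. In bulk RNA, fewer cells of a type and less RNA per cell cannot be told apart.

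The C1q genes were among the most abundant of the 9 and were highest in microglia, at levels that varied little between mice. In microglia C1qa ran from 678 CPM through a median of 863 to 1101 in controls and from 841 through 912 to 1013 in Rag2-/- mice. C1qb ran from 2162 through 2367 to 2745 CPM in controls and from 2098 through 2403 to 2874 in Rag2-/- mice. C1qc ran from 1586 through 1881 to 2283 CPM in controls and from 1968 through 2036 to 2475 in Rag2-/- mice. The 2 genotypes overlapped for each chain, and all 12 microglia libraries lay far above every library of the other 3 cell types. In oligodendrocytes of pairs 1, 3, 5 and 6, C1qb was at 71.2, 176, 108 and 27.8 CPM in controls and at 77.0, 160, 44.2 and 43.04 in Rag2-/- mice. In OPCs it ran from 55.6 through 98.1 to 247 CPM in controls and was at 47.6, 56.2, 285, 75.8 and 84.6 in Rag2-/- mice of pairs 1, 2, 3, 4 and 6. Astrocytes were lowest, from 14.1 through 26.2 to 74.5 CPM in controls and from 24.6 through 29.1 to 48.4 in Rag2-/- mice. The highest value of each of these groups of astrocytes, OPCs and oligodendrocytes was the library of pair 3. Over both genotypes, C1qa averaged 883 ± 114 CPM (SD, n = 12) in microglia, 45.6 ± 30.7 (n = 8) in oligodendrocytes, 42.6 ± 30.9 (n = 11) in OPCs and 9.599 ± 5.13 (n = 12) in astrocytes. The matching C1qc means were 1994 ± 251, 92.6 ± 46.7, 93.6 ± 72.2 and 23.7 ± 7.43 CPM. The C1q means of oligodendrocytes and OPCs thus differed by less than their SD, and their order rested on the scaling (below).

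Compared in edgeR over all 43 libraries, C1qb was higher in microglia than in astrocytes by 5.99 ± 0.32 (adjusted p = 3.98e-20), than in OPCs by 4.602 ± 0.32 (1.58e-16) and than in oligodendrocytes by 3.98 ± 0.35 (2.84e-13). C1qa was higher by 6.28 ± 0.36, 4.54 ± 0.35 and 3.45 ± 0.37, and C1qc by 6.14 ± 0.31, 4.59 ± 0.30 and 3.59 ± 0.32. C1qb had the largest mean share of the 3 chains in microglia, astrocytes and OPCs, and C1qc in oligodendrocytes. Of their summed CPM in microglia, C1qb made up 45.9% ± 2.89, C1qc 37.5% ± 2.14 and C1qa 16.6% ± 1.13 (SD, n = 12). In astrocytes the shares were 48.8% ± 5.62, 37.1% ± 5.62 and 14.2% ± 3.00 (n = 12), and in OPCs 45.9% ± 3.45, 37.1% ± 5.08 and 16.97% ± 3.62 (n = 11). Oligodendrocytes had 37.8% ± 6.94, 42.8% ± 8.96 and 19.4% ± 4.37 (n = 8), the widest spread of the 4.

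**Figure D1:**
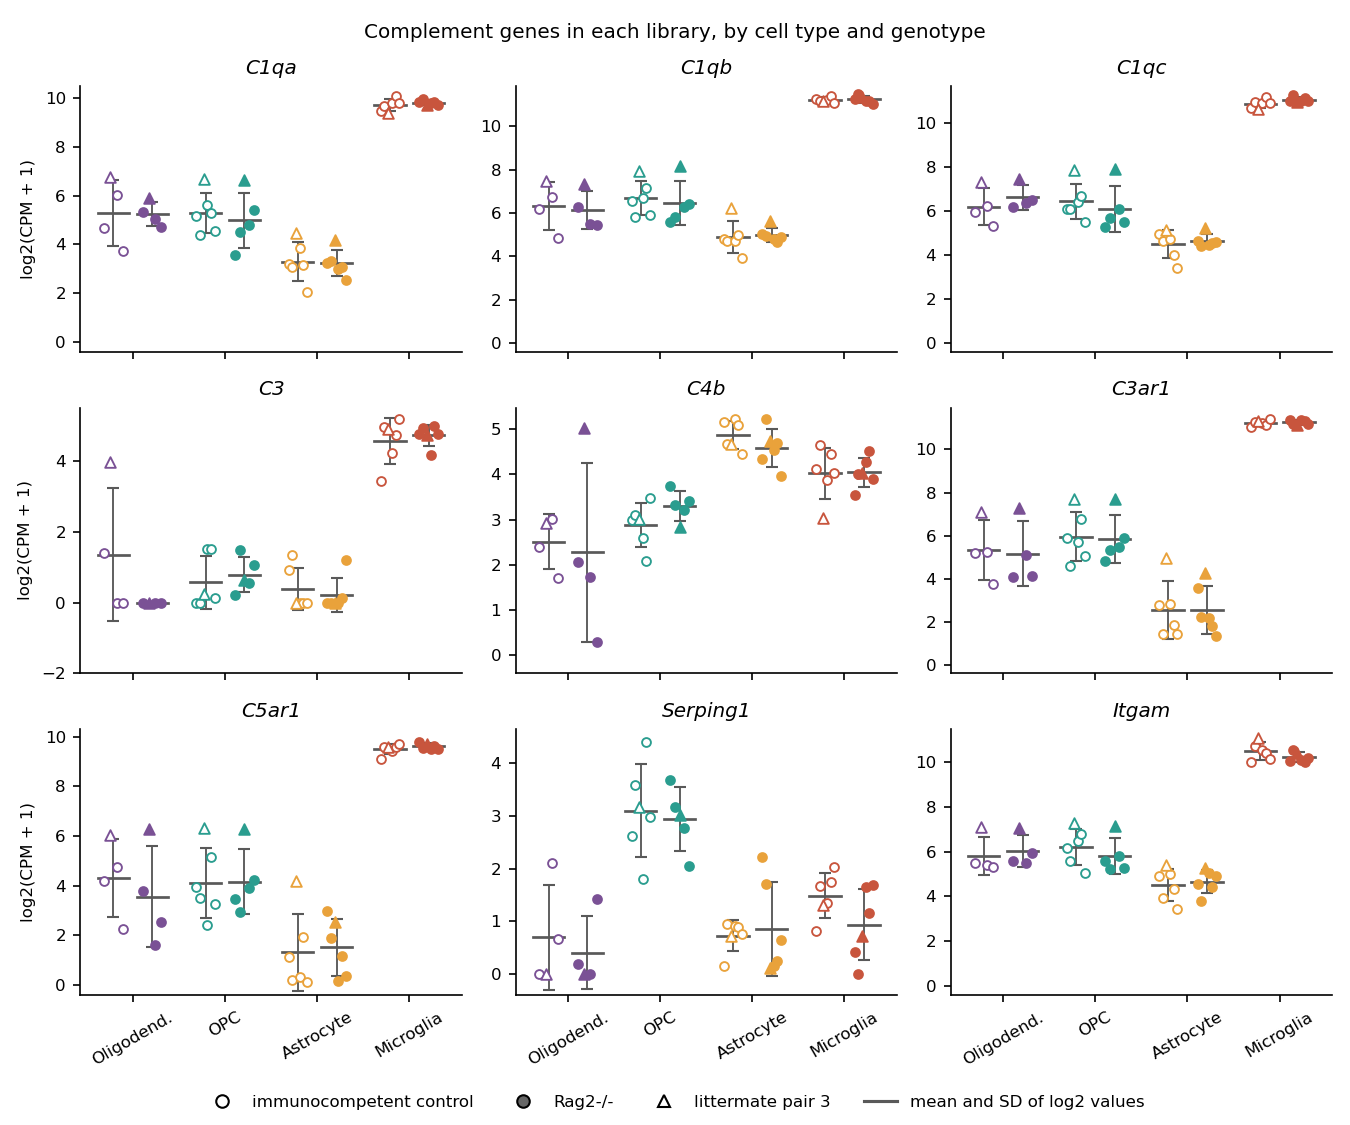
Level of each complement gene in 43 libraries, as log2(CPM + 1) on the vertical axis, by cell type and genotype; each point is a library, bars are the mean and SD of the log2 values, and triangles are littermate pair 3. C1qa, C1qb, C1qc, C3ar1, C5ar1 and Itgam lie highest in all 12 microglia libraries, C4b is highest in astrocytes and Serping1 in OPCs, and control and Rag2-/- points overlap in each panel.

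The receptors followed the same order. C3ar1, the receptor for the C3 fragment, ran from 2118 through 2434 to 2764 CPM in control microglia and from 2260 through 2462 to 2643 in Rag2-/- microglia. Means were 77.2 ± 67.1 CPM (SD, n = 11) in OPCs, 55.4 ± 57.2 (n = 8) in oligodendrocytes and 7.31 ± 8.71 (n = 12) in astrocytes, and each SD was near or above its mean because the pair 3 libraries stood high, at 204 and 205 CPM in OPCs, 137 and 156 in oligodendrocytes and 30.4 and 18.002 in astrocytes. C3ar1 was higher in microglia than in astrocytes by 8.32 ± 0.55 (edgeR adjusted p = 2.56e-17), the widest gap of any of the 9 genes, and than in OPCs and oligodendrocytes by 5.24 ± 0.50 and 4.84 ± 0.55. C5ar1, the receptor for the C5 fragment, ran from 551 through 765 to 827 CPM in control microglia and from 720 through 774 to 893 in Rag2-/- microglia. It averaged 26.2 ± 29.2 CPM in oligodendrocytes, 25.3 ± 27.7 in OPCs and 3.13 ± 4.88 in astrocytes, where its lowest library had 1 count. The edgeR difference of C5ar1 between microglia and astrocytes was 7.78 ± 0.69 (adjusted p = 2.37e-13).

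Itgam, the CD11b chain, was the receptor gene with the widest range within microglia, from 1034 through 1410 to 2161 CPM in controls and from 1030 through 1134 to 1502 in Rag2-/- mice. The highest of these was the control of pair 3. Its mean was 1337 ± 337 CPM (SD, n = 12) in microglia, 74.1 ± 43.1 (n = 11) in OPCs, 67.4 ± 40.6 (n = 8) in oligodendrocytes and 24.8 ± 9.84 (n = 12) in astrocytes. Microglia were above astrocytes by 5.50 ± 0.28, above OPCs by 4.38 ± 0.28 and above oligodendrocytes by 3.49 ± 0.31 (largest edgeR adjusted p = 2.47e-13). Because of the bases it shares with Gm49368, these values cover an unknown part of its transcripts.

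Outside microglia the remaining genes of this group varied in the same way. In oligodendrocytes of pairs 1, 3, 5 and 6, C1qa was at 24.4, 108.1, 64.3 and 12.3 CPM in controls and at 39.3, 58.98, 32.4 and 25.5 in Rag2-/- mice. In OPCs C1qa ran from 19.9 through 36.8 to 103.6 CPM in controls and from 10.9 through 26.7 to 98.5 in Rag2-/- mice, and in astrocytes from 3.14 through 8.08 to 20.97 and from 4.84 through 8.01 to 17.3. C1qc in oligodendrocytes of these pairs was at 60.1, 155.9, 74.04 and 38.4 CPM in controls and 70.3, 171.8, 80.7 and 89.6 in Rag2-/- mice. In OPCs C1qc ran from 44.1 through 74.9 to 231.7 CPM in controls and from 37.3 through 50.2 to 237.6 in Rag2-/- mice, and in astrocytes from 9.71 through 24.8 to 34.1 and from 20.2 through 22.5 to 36.6. For both of these C1q chains, pair 3 held the highest library of every group outside microglia. In oligodendrocytes of pairs 1, 3, 5 and 6, C3ar1 was at 36.05, 136.9, 36.4 and 12.3 CPM in controls and at 16, 155.9, 33.4 and 16.2 in Rag2-/- mice. In OPCs C3ar1 ran from 23.1 through 54.7 to 203.8 CPM in controls and from 27.1 through 42.5 to 205.3 in Rag2-/- mice, and in astrocytes from 1.67 through 4.14 to 30.4 and from 1.49 through 3.57 to 18. C5ar1 in oligodendrocytes of these pairs was at 17.2, 65.2, 26.3 and 3.76 CPM in controls and 12.99, 77.6, 2.05 and 4.85 in Rag2-/- mice. In OPCs C5ar1 ran from 4.37 through 12.3 to 79.6 CPM in controls and from 6.59 through 14.1 to 77.99 in Rag2-/- mice, and in astrocytes from 0.0981 through 0.731 to 17.1 and from 0.107 through 1.97 to 6.9. Pair 3 again held the highest library of each of these groups, apart from C5ar1 in Rag2-/- astrocytes, where pair 1 was highest. In oligodendrocytes of pairs 1, 3, 5 and 6, Itgam was at 43.5, 134.4, 41.2 and 38.5 CPM in controls and at 47.3, 130.2, 43.9 and 60.3 in Rag2-/- mice. In OPCs Itgam ran from 32 through 78.9 to 152.6 CPM in controls and from 36.3 through 46.2 to 141.2 in Rag2-/- mice, and in astrocytes from 9.9 through 24.1 to 40.6 and from 12.97 through 25.5 to 37.7. Itgam too was highest in pair 3 in all 6 groups, and in each cell type the controls and the Rag2-/- mice overlapped for all 5 genes.

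To compare genes with each other, the mean CPM was divided by the length of the Ensembl canonical transcript in kilobases. Per length, microglia had 1077 ± 136 CPM of C1qc, 961 ± 90.7 of C1qb and 812 ± 105 of C1qa (SD, n = 12), so that neighbours in this order were within about 1 SD to 2 SD of each other. C3ar1 followed at 488 ± 39.2, Itgam at 357 ± 89.9 and C5ar1 at 299 ± 33.8 CPM per kilobase. C3, C4b and Serping1 were far below, at 4.95 ± 1.39, 2.95 ± 0.868 and 0.816 ± 0.508. The order depends on the transcript model: over all annotated exons C1qb, whose exons sum to 6246 bases against 2532 in the canonical transcript, had 390 CPM per kilobase and fell below C3ar1, at 488.

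RefSeq promoter windows in GRCm38.p6 were at hand for 6 of the 9 genes, C3 and 5 of those with high microglia levels (C1qb, C1qc, C3ar1, C5ar1 and Itgam), and the 250 bases before each start were searched on both strands for GAGGAA, the purine-rich core that ETS factors such as PU.1 bind. The windows of 4 genes that move together across cell types are shown, and capitals mark GAGGAA or its reverse complement TTCCTC. The first 3 hold the motif and the last does not.
C1qb, chr4:136886201-136886450 (minus strand): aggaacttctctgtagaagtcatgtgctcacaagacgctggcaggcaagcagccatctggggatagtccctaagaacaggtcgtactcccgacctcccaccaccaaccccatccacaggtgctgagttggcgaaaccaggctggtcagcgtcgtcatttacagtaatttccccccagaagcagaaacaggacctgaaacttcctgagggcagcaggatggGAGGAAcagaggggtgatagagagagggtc
C1qc, chr4:136892915-136893164 (minus strand): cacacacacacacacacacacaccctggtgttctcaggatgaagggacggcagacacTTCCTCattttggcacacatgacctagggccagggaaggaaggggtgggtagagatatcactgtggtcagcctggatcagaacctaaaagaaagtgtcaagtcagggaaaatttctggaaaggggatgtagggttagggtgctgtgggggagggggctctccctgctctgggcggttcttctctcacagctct
Itgam, chr7:128062390-128062639 (plus strand): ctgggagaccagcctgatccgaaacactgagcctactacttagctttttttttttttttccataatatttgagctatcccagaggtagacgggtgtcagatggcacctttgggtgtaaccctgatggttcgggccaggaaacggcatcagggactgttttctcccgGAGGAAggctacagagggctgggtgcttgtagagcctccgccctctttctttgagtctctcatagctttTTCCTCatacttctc
C3ar1, chr6:122856158-122856407 (minus strand): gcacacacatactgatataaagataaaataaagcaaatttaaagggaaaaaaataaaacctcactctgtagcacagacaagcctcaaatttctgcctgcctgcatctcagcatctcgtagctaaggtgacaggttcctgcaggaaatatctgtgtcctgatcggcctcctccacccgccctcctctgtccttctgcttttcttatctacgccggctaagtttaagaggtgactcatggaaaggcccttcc

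C1qb held 1 match that begins 30 bases before the start, C1qc held 1 on the opposite strand, 193 bases before, and Itgam held 2, at 84 bases and, on the opposite strand, 15 bases before. C3, C3ar1 and C5ar1 held none. In all, 3 of 6 windows had the motif, against 23.3% of the 32851 promoters in the table, and with so few windows no more is read from it. The TATA box TATAAA was found in the C3ar1 window alone, 235 bases before the start, and in 12.4% of all windows. TTGCAA, a letter string that C/EBP factors bind, and one form of the NF-kB motif were found in none of the 6 and in 5.34% and 0.14% of all windows. A match in these letters is a description of the sequence and not of a bound site.

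C3, the central component of the cascade, was low and varied between mice. In microglia of pairs 1 to 6 it was at 9.85, 30.5, 29.4, 18.002, 25.9 and 35.7 CPM in controls and at 26.6, 29.7, 25.9, 17.3, 31.0 and 26.3 in Rag2-/- mice. The control of pair 1 was the lowest at 64 counts, and the groups overlapped. Outside microglia it was sporadic. Of 8 oligodendrocyte libraries 6 had 0 counts, including all 4 from Rag2-/- mice, while the control of pair 3 had 159 counts (14.97 CPM) and that of pair 1 had 21 (1.66 CPM). That 1 library held 88.3% of all C3 counts in oligodendrocytes. In astrocytes 8 of 12 libraries had 0 counts and the highest levels were 1.53 CPM (10 counts) and 1.303 CPM (14 counts), and in OPCs 2 of 11 had 0 and the highest was at 1.89 CPM. For a library at 0, 3 counts, a rough upper bound on the expected count and not a strict limit, would be 0.201 to 0.399 CPM. Such bounds cover counting error only. C3 was removed as too low within oligodendrocytes, OPCs and astrocytes and entered the joint fit through microglia, so its calls against these types followed from the filter. With control libraries alone microglia and oligodendrocytes were no longer called apart (edgeR adjusted p = 0.149), since the pair 3 library then weighs more.

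C4b, the mouse C4, was highest in astrocytes. Astrocytes of pairs 1 to 6 had 34.5, 24.4, 24.6, 36.3, 32.9 and 20.9 CPM in controls and 19.2, 36.5, 25.8, 22.3, 24.7 and 14.5 in Rag2-/- mice. Microglia had 16.5, 23.97, 7.16, 13.6, 20.9 and 15.2 CPM in controls and 10.7, 15.2, 15.4, 18.2, 21.8 and 13.9 in Rag2-/- mice, so the 2 cell types overlapped. OPCs had 6.98, 7.58, 7.08, 5.06, 3.24 and 10.2 CPM in controls, and 12.4, 8.94, 6.14, 8.28 and 9.69 in Rag2-/- mice of pairs 1, 2, 3, 4 and 6, with no library as high as the lowest astrocyte library. Oligodendrocytes of pairs 1, 3, 5 and 6 had 4.27, 6.59, 7.10 and 2.26 CPM in controls and 3.15, 31.4, 2.33 and 0.220 in Rag2-/- mice. The Rag2-/- library of pair 3 alone held 55.2% of the C4b counts in oligodendrocytes, and the lowest library had 3 counts. The means were 26.4 ± 7.13 CPM (SD, n = 12) in astrocytes, 16.04 ± 4.72 (n = 12) in microglia, 7.79 ± 2.54 (n = 11) in OPCs and 7.16 ± 10.0 (n = 8) in oligodendrocytes. Astrocytes were above microglia by 0.97 ± 0.32 (edgeR adjusted p = 0.0071), above OPCs by 2.14 ± 0.34 (1.91e-06) and above oligodendrocytes by 1.39 ± 0.38 (0.0021), which became 2.53 without pair 3. The gap to microglia did not pass with total counts as library size (0.71, adjusted p = 0.0566). Microglia were above OPCs by 1.17 ± 0.34 (adjusted p = 0.0021), which did not pass with mitochondrial genes left out of the library size (0.72, adjusted p = 0.0504). The difference of microglia from oligodendrocytes was 0.42 ± 0.37 (adjusted p = 0.314) and became 1.60 (4.35e-05) without pair 3, and it was also called with total counts as library size (1.25) and with control libraries alone (0.85).

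Serping1, the C1 inhibitor, was highest in OPCs and low elsewhere. OPCs of pairs 1 to 6 had 5.11, 11.03, 8.04, 2.48, 20.3 and 6.91 CPM in controls, and 11.9, 8.05, 7.13, 5.87 and 3.11 in Rag2-/- mice of pairs 1, 2, 3, 4 and 6. Every OPC library had at least 25 counts. Microglia had 0.769, 2.18, 1.49, 1.55, 2.36 and 3.06 CPM in controls and 0.330, 0.0, 0.641, 2.13, 1.22 and 2.22 in Rag2-/- mice. Astrocytes averaged 0.909 ± 1.04 CPM (SD, n = 12), with 1 to 39 counts, and oligodendrocytes 0.717 ± 1.21 (n = 8), with 4 of 8 libraries at 0. OPCs were above microglia by 2.35 ± 0.62 (edgeR adjusted p = 0.0010), above astrocytes by 2.73 ± 0.64 (5.84e-04) and above oligodendrocytes by 2.699 ± 0.77 (0.0046), which became 4.17 without pair 6. Serping1 was removed as too low within astrocytes and within oligodendrocytes and entered the joint fit through OPCs and microglia. Its calls against astrocytes and oligodendrocytes thus followed from the filter. The summed markers of mural cells and fibroblasts were at 97.6 to 431 CPM in OPCs, 91.9 to 153 in astrocytes, 17.5 to 53.4 in microglia and 6.22 to 55.0 in oligodendrocytes, with all 7 list genes counted in the OPC groups. The sum was thus also high in astrocytes, where Serping1 was low and Pdgfrb made up 88.7 ± 16.7 CPM of it. Dcn, another gene of that list, was at 17.3 ± 9.66 CPM in OPCs and 0.330 ± 0.64 in astrocytes. Their part in the Serping1 level was not tested.

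Between the other pairs of cell types, the 9 genes can be set against all genes tested. Of 21368 genes, 33.5% were called higher and 36.5% lower in microglia than in astrocytes (edgeR adjusted p under 0.05), and 7 of the 9 complement genes were higher and 1, C4b, lower. Against OPCs microglia had 30.8% of all genes higher and 38.7% lower, and 8 complement genes higher and 1, Serping1, lower. Against oligodendrocytes the shares were 34.8% and 33.2%, and 7 complement genes were higher and 0 lower. C3, which passed the filter through microglia, is among those higher in each of these 3 counts, so they are a description and not support. From astrocytes to OPCs, 17.1% of genes were higher in astrocytes and 25.4% lower, with C4b higher and 7 complement genes lower. From astrocytes to oligodendrocytes 24% were higher and 25.7% lower, with C4b higher and 6 complement genes lower. OPCs had 25% of genes higher and 15.7% lower than oligodendrocytes, with Serping1 higher and C1qa, C1qc and Itgam lower. Serping1, removed as too low within astrocytes and within oligodendrocytes, is among the calls between each of these types and OPCs, and its calls there followed from the filter. Between OPCs and oligodendrocytes the members' calls also depended on the scaling. With total counts as library size, which counts the mitochondrial share, 1 of the 9 was called, Serping1, and 93.2% of all calls were higher in OPCs against 61.4% with TMM. With mitochondrial genes left out of the library size, 1 was called and 80.7% of calls were higher. The share of higher calls also went from 51.1% to 70.7% for microglia against oligodendrocytes, from 40.2% to 20.8% for astrocytes against OPCs and from 48.4% to 75.4% for astrocytes against oligodendrocytes with total counts, and without mitochondrial genes to 30.7% from 44.4% for microglia against OPCs and to 26.01% for astrocytes against OPCs.

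Since microglia markers were present in every astrocyte, OPC and oligodendrocyte library, each complement gene was also compared with them directly, as its count per summed count of the 6 markers. For the C1q genes this ratio was near that of microglia themselves. C1qb had 661 ± 58.1 counts per 1000 marker counts (SD, n = 12) in microglia, 706 ± 173 (n = 12) in astrocytes, 625.4 ± 82.7 (n = 11) in OPCs and 594 ± 265 (n = 8) in oligodendrocytes. On the log2 scale the 3 C1q genes differed from microglia by -0.28 to 0.22 in these 3 types, while the median over all 21362 genes tested was 6.22 in astrocytes, 4.84 in OPCs and 3.58 in oligodendrocytes. With p adjusted over all of these genes, 1 of the 9 C1q differences was called, C1qa in astrocytes (-0.27, permutation test, adjusted p = 0.0417). The 6 markers, each set against the other 5, differed by -1.49 to 1.16 in astrocytes, -0.64 to 0.36 in OPCs and -0.63 to 0.78 in oligodendrocytes, which gives the range over which microglia genes themselves varied.

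**Figure D2:**
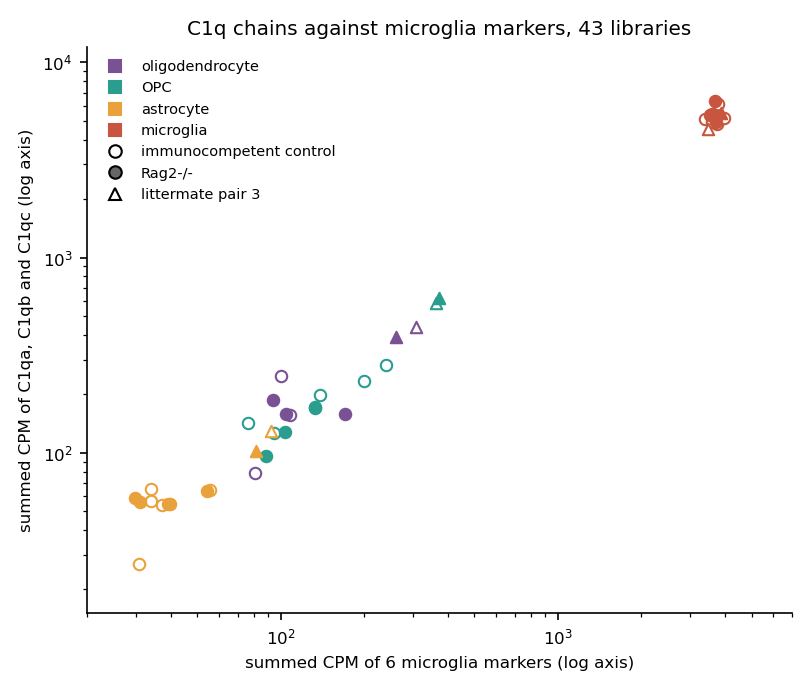
Summed CPM of C1qa, C1qb and C1qc (vertical, log axis) against the summed CPM of 6 microglia markers (horizontal, log axis) in 43 libraries; open symbols are controls, filled symbols Rag2-/- and triangles littermate pair 3. The 12 microglia libraries sit at 4574 to 6361 CPM of C1q, astrocytes lie lowest, at 26.97 to 129.6, and the pair 3 libraries of each of the other types lie at its upper end.

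Of the 27 such comparisons, made with two-sided permutation tests (100000 resamples, exact for oligodendrocytes), 12 were called after Benjamini-Hochberg adjustment over the 27, and the p-values here are unadjusted. Adjusted over all genes, a setting added after seeing the data, 6 of 9 members were called in astrocytes, 5 in OPCs and 3 in oligodendrocytes, the 2 added calls being C1qa in astrocytes and C3 in OPCs. Per microglia marker count, 96.7% of all genes were called higher in astrocytes than in microglia, 93.9% in OPCs and 85.8% in oligodendrocytes, so a higher ratio is the background here. A lower ratio was called for 1.25%, 1.37% and 2.72% of all genes. The median difference over all genes was 6.22 in astrocytes, 4.84 in OPCs and 3.58 in oligodendrocytes. C4b lay above this median in astrocytes alone, and Serping1 in OPCs alone. C4b per marker count was higher than in microglia by 7.14 in astrocytes (p = 2e-05, the smallest these resamples can give), by 3.54 in OPCs (permutation p = 2e-05) and by 2.67 in oligodendrocytes (exact p = 2.38e-04). It was above the microglia mean in 12 of 12, 11 of 11 and 7 of 8 libraries. Serping1 was higher by 7.27 in OPCs and 5.51 in astrocytes (permutation p = 2e-05 for both), in 11 of 11 and 12 of 12 libraries, and its difference of 2.28 in oligodendrocytes was not called (exact p = 0.0501, higher in 5 of 8). Where a gene's counts are this low, the 0.5 count added to each value holds the ratio up or down. C3ar1 went the other way and was lower per marker count by 2.65 in astrocytes and 0.80 in OPCs (permutation p = 2e-05 for both) and by 1.31 in oligodendrocytes (exact p = 6.35e-05), with 0 of 31 libraries above the microglia mean. C5ar1 was lower by 2.98 in astrocytes (permutation p = 2e-05) and 0.95 in OPCs (permutation p = 2.80e-04), while 1.04 in oligodendrocytes was not called (exact p = 0.0491). Itgam was higher by 0.58 in astrocytes (permutation p = 0.0029), which lies within the range of the markers and was not called among control libraries alone (0.35). C3 was lower by 2.68 in oligodendrocytes (exact p = 0.0107), a call that was lost with control libraries alone (0.71), in the paired test and without pair 5 or pair 6. Of these 8 libraries 6 had 0 counts of C3, where the 0.5 added sets the ratio, so nothing is read from this call. The mean per 1000 marker counts went the other way, at 7.98 ± 17.2 (SD, n = 8) in oligodendrocytes and 6.98 ± 2.12 (n = 12) in microglia. Without pair 3, C5ar1 (1.46 lower) and Serping1 (3.32 higher) were also called in oligodendrocytes.

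**Figure D3:**
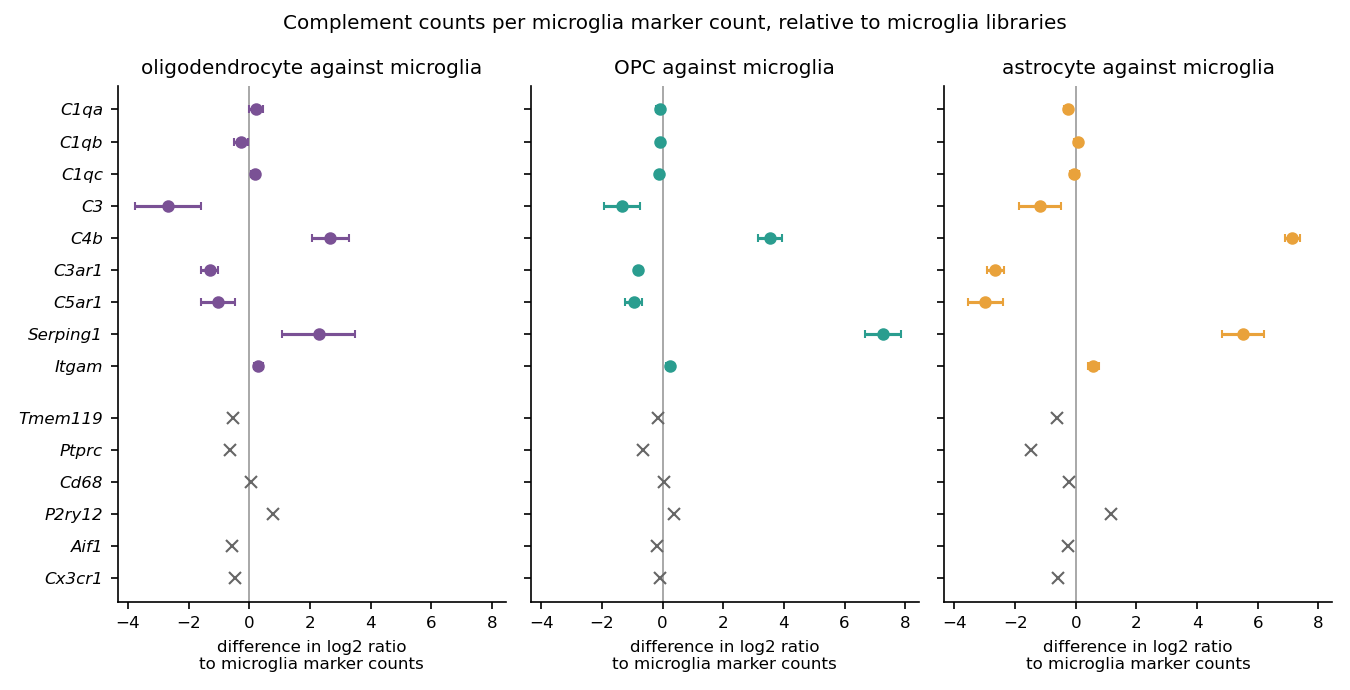
Difference from microglia in the log2 ratio of each complement gene's count to the summed count of 6 microglia markers (horizontal), in oligodendrocytes, OPCs and astrocytes; circles are complement genes with the SE of the difference, and crosses are the 6 markers, each against the other 5. C4b and Serping1 lie to the right, by 7.14 and 5.51 in astrocytes, where the median over all genes was 6.22. C3ar1 and C5ar1 lie to the left, and the C1q genes lie within 0.28 of 0.

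The comparison the study was built on is that of Rag2-/- mice with immunocompetent littermates. In no cell type did edgeR, with sex as a term, call any of the tested complement genes. Over all genes microglia had 0.00667% called (1 of 15003), astrocytes 0.00679% (1 of 14725), OPCs 0.00592% (1 of 16882) and oligodendrocytes 0.0% (0 of 13802). Among members past the filter on low counts, 9 in microglia, 8 in OPCs and 7 each in astrocytes and oligodendrocytes, 0 had an unadjusted p under 0.05 in any cell type. Over all genes the share with such a p ran from 2.87% in astrocytes to 4.02% in OPCs. DESeq2 on all genes called 0 of 9 in each and gave 1 unadjusted p under 0.05, in oligodendrocytes. Its background differed from that of edgeR in oligodendrocytes, where it called 206 of 25949 genes, 19 higher and 187 lower in Rag2-/- mice, against 5 genes in OPCs, 3 in microglia and 1 in astrocytes. Leaving out both libraries of pair 3, chosen after seeing the data, also called 0 in each cell type.

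In microglia the errors were narrowest for 7 of the 9 genes, all but C4b and Serping1. There C1qc was at 2121 ± 191 CPM in Rag2-/- mice and 1867 ± 252 in controls (SD, n = 6 each), a log2 difference of 0.17 ± 0.10 (edgeR adjusted p = 0.999), and was higher in 5 of 6 pairs. C1qa and C1qb differed by 0.09 ± 0.11 and 0.05 ± 0.12, C3ar1 by 0.04 ± 0.09 and C5ar1 by 0.15 ± 0.10. C3 differed by 0.06 ± 0.21 and C4b by -0.07 ± 0.22. Itgam was at 1203 ± 190 CPM in Rag2-/- mice and 1471 ± 413 in controls, -0.26 ± 0.14 (edgeR adjusted p = 0.999), and lower in 4 of 6 pairs, and without the pair 3 control the difference was -0.14. Serping1, at 1.09 ± 0.934 and 1.90 ± 0.802 CPM, differed by -0.83 ± 0.59 and was lower in 5 of 6 pairs. An approximate 95% interval of the difference ran from -0.18 to 0.28 for C1qb and from -0.14 to 0.23 for C3ar1 in microglia. These intervals take the SE under a normal distribution, and are narrower than the edgeR test itself would give.

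In astrocytes, C4b was at 23.8 ± 7.43 CPM in Rag2-/- mice and 28.9 ± 6.41 in controls (SD, n = 6 each), a difference of -0.21 ± 0.20 (edgeR adjusted p = 1.00), lower in 4 of 6 pairs. In OPCs it was at 9.10 ± 2.29 (n = 5) and 6.69 ± 2.36 CPM (n = 6), 0.52 ± 0.32 and higher in 3 of 5 pairs. The summed astrocyte markers of OPCs, at 3818 ± 400 CPM in controls and 5268 ± 2116 in Rag2-/- mice, were highest in the Rag2-/- library of pair 1 (8769), which also had the highest C4b, and their part in this difference was not tested. In oligodendrocytes its difference was 0.35 ± 1.10, where the Rag2-/- group held both the highest and the lowest library. Serping1 in OPCs differed by -0.11 ± 0.42. The C1q genes differed by 0.02 to 0.25 in astrocytes, by -0.16 to 0.005 in OPCs and by -0.34 to 0.42 in oligodendrocytes, with SEs of 0.25 to 0.49. C1qc was higher in all 4 Rag2-/- oligodendrocyte libraries than in their littermates, by 0.42 ± 0.35 (edgeR adjusted p = 0.998), but the difference was 0.04 without the Rag2-/- library of pair 3 and 0.74 without its control. C3 in oligodendrocytes did not pass the filter. Fitted without it, its unadjusted edgeR p was 0.0010 and its adjusted p 0.366, and the difference rested on the 2 control libraries that had counts. The joint fit over cell types tested whether the genotype difference itself varied between them. It called 0.248% of 21368 genes, 53 in all, and 0 of the 9. Cell types of 1 mouse share that mouse, and with the mouse as a block 5 genes were called. Leaving out 1 replicate number in turn gave 13 (without replicate 4) to 68 (without replicate 1), with 15 without replicate 2 or 5 and 28 without replicate 6. Of the 9, C3 alone had an unadjusted p under 0.05 and was called without the filter on low counts. It had 0 counts in all 4 Rag2-/- oligodendrocyte libraries and was removed as too low in every type but microglia, so nothing is read from either value.

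**Figure D4:**
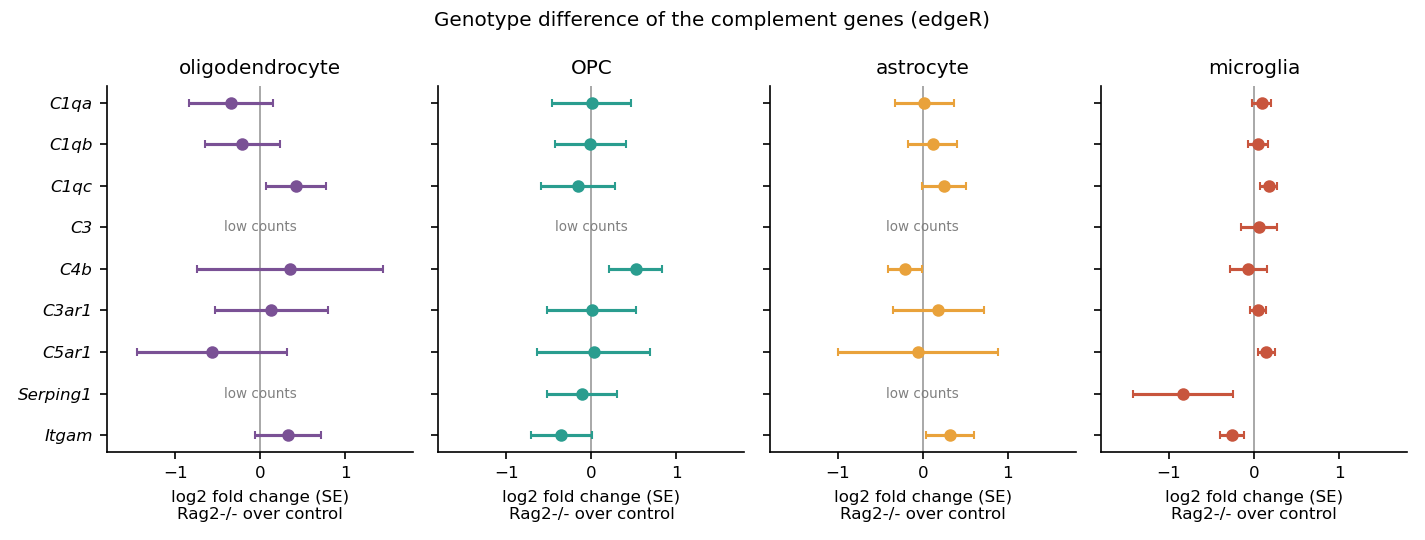
edgeR log2 fold change of Rag2-/- over control (horizontal) with its SE for each complement gene in the 4 cell types; genes removed by the low-count filter have no point. In microglia the SEs are 0.09 to 0.22 apart from Serping1, at 0.59, and none of the points passed the test.

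Between the sexes none of the 9 was called in any cell type by edgeR, with genotype as a term. Over all genes microglia had 0.0467% called, astrocytes 0.0407%, oligodendrocytes 0.0362% and OPCs 0.0296%. Before adjustment 2 members in astrocytes had a p under 0.05 and 0 in the other types, and DESeq2 called 0, with 3 such members in astrocytes and 1 in microglia. In edgeR such a p was found for 6.73% of all genes in astrocytes, 8.23% in oligodendrocytes, 4.30% in OPCs and 3.92% in microglia. Over all genes DESeq2 called 422 of 25949 by sex in oligodendrocytes, 19 in astrocytes, 13 in OPCs and 11 in microglia. C3ar1 in astrocytes stood lowest, at 2.36 CPM on average in 5 females and 10.8 in 7 males, a log2 difference of -2.32 ± 0.58 (edgeR adjusted p = 0.546). Itgam was at 19.2 and 28.9 CPM, -0.70 ± 0.29 (edgeR adjusted p = 0.716). Both pair 3 mice, whose astrocyte libraries had the highest microglia markers, were male. Without pair 3, an alternative added after seeing the data, the differences of C3ar1 and Itgam in astrocytes were -1.47 and -0.52 (edgeR adjusted p = 0.793 and 0.825), and the C3ar1 difference in OPCs went from -0.66 to 0.41. In microglia the sexes differed by -0.06 ± 0.10 for C3ar1 and 0.08 ± 0.14 for Itgam, and by 0.45 ± 0.22 for C4b, at 19.1 CPM in females and 13.8 in males (edgeR adjusted p = 1.00).

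The rest of the pathway was read from a list of 46 other complement genes. Of these, 28 passed the filter in the joint fit. None was called by genotype or by sex in edgeR in any cell type: 5 genotype and 4 sex differences had an unadjusted p under 0.05 among the genes past the filter, and DESeq2 called 0. Over all genes the edgeR share with such a p was 2.87% to 4.02% by genotype and 3.92% to 8.23% by sex, depending on the cell type. The largest by level was Clu, clusterin, an extracellular chaperone that blocks the terminal complex. It differed by genotype in OPCs by 0.49 ± 0.16 (edgeR adjusted p = 1.00), and had an adjusted p of 0.0151 without the filter on low counts. The summed astrocyte markers in OPCs, given above beside C4b, ran from 3285 to 8769 CPM in Rag2-/- mice (n = 5) and from 3404 to 4246 in controls (n = 6), and their part in the Clu difference was not tested.

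Of 9 tested genes that start the classical and lectin branches, 4 were higher and 2 lower in microglia than in astrocytes, where 33.5% of all genes were higher and 36.5% lower. Of these 6, Masp1 alone was kept by the filter within both cell types, and C1rl, C2 and Fcna were kept within microglia alone, so their calls followed from the filter and nothing is read from the count. Masp1, a lectin-pathway protease, was at 42.9 ± 6.38 CPM (SD, n = 11) in OPCs and 35.3 ± 7.39 (n = 12) in astrocytes, against 2.35 ± 0.869 in microglia and 3.59 ± 2.27 in oligodendrocytes, and was lower in microglia than in astrocytes by 4.18 ± 0.24 (edgeR adjusted p = 5.03e-19). Fcna, a ficolin that recognises sugars, and C1rl were at 3.53 ± 1.82 and 2.47 ± 1.19 CPM in microglia and averaged at most 0.147 and 0.273 CPM in the other types. Of the alternative pathway only properdin, Cfp, could be tested, and it was called in no comparison. Of the terminal components only Hc (C5) and C8g were tested, in the joint fit alone, since both were removed as too low within every cell type. Hc, under 1 CPM on average everywhere, was lower in microglia than in astrocytes by 1.77 ± 0.80 (edgeR adjusted p = 0.0465), a call made in 7 of the 11 alternatives that tested it. At such low counts nothing is read from this call.

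Regulators were split. Of 11 tested, 4 were higher and 6 lower in microglia than in astrocytes, and 2 higher and 7 lower than in OPCs. Over all genes 33.5% were higher and 36.5% lower against astrocytes, and 30.8% and 38.7% against OPCs. All 11 but Cd55 and Cd59a were kept by the filter within each cell type. Clu was at 2261 ± 414 CPM (SD, n = 12) in astrocytes, 523 ± 158 (n = 11) in OPCs, 76.98 ± 23.04 (n = 8) in oligodendrocytes and 22.3 ± 7.07 (n = 12) in microglia, with no overlap between any 2 cell types. Csmd3 was at 218 ± 47.6 CPM in OPCs and 178 ± 28.3 in microglia, which did not differ in edgeR (adjusted p = 0.445), and at 16.5 ± 8.31 in astrocytes. Of 5 receptors tested, 4 were higher in microglia than in each of the other types. Against oligodendrocytes 34.8% of all genes were higher in microglia. Of the 4, Itgb2 and Cd93 were kept by the filter within every type, and C5ar2 and Itgax were removed as too low within astrocytes and OPCs. The calls of C5ar2 and Itgax against these 2 types followed from the filter, so nothing is read from the count. The fifth, Cr2, was lower in microglia than in astrocytes by 3.38 ± 0.61 (edgeR adjusted p = 5.23e-06) and than in oligodendrocytes by 2.01 ± 0.65 (0.0060), where 33.2% of all genes were lower, and did not pass against OPCs (0.249). Cr2 was removed as too low within microglia and OPCs. It entered the joint fit through types where it was higher, so nothing is read from these calls. The Cr2 call against oligodendrocytes was lost without pair 6 (-1.23) and with total counts as library size. Itgb2, the partner of Itgam, was at 277 ± 55.0 CPM in microglia, 13.2 ± 9.51 in OPCs, 12.8 ± 13.9 in oligodendrocytes and 1.81 ± 1.19 in astrocytes. Cd93 was at 38.1 ± 13.8 CPM and C5ar2, the second receptor for the C5 fragment, at 36.1 ± 9.43 in microglia.

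**Figure D5:**
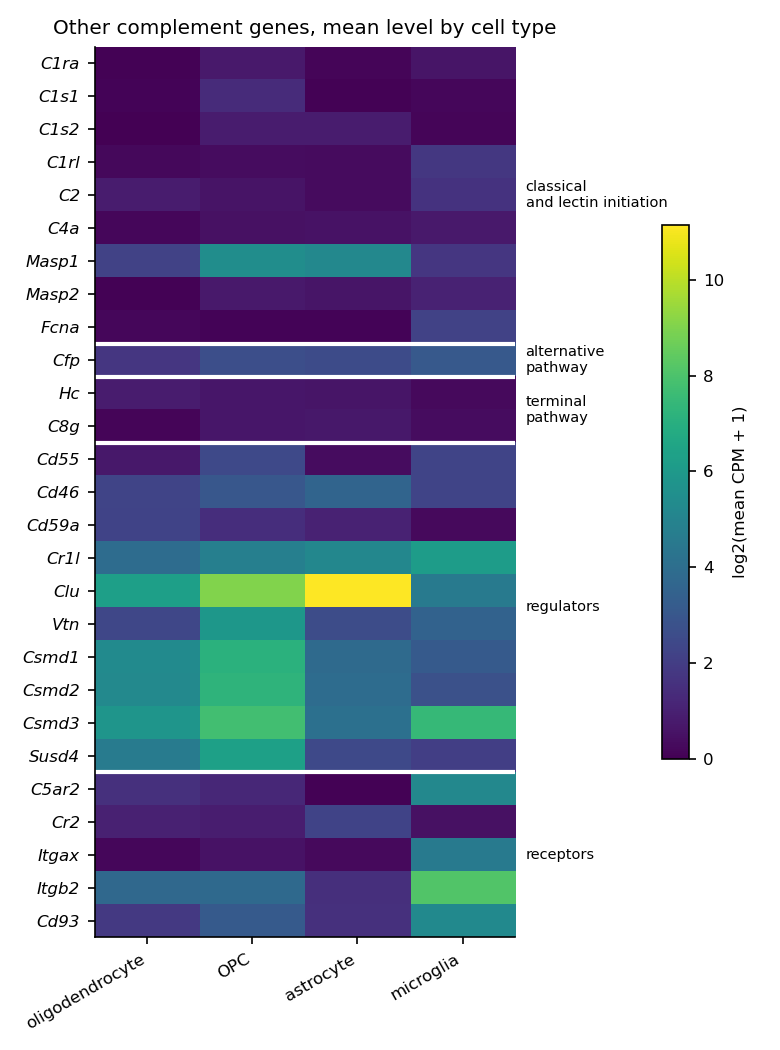
Mean level of 27 of the 28 other complement genes that passed the filter, as log2(mean CPM + 1) by colour, in the 4 cell types, grouped by role. Clu is highest in astrocytes (2261 CPM), Itgb2 in microglia (277 CPM) and Masp1 in OPCs and astrocytes (42.9 and 35.3 CPM).

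The genes whose pattern over the 43 libraries was most like each member were found by Pearson's r of log2(TMM-scaled CPM + 1) over 21368 genes. The points share 4 cell types and the same mice, so r mostly reads the cell type. For C1qa the nearest were Csf1r (0.99), Tyrobp (0.99) and Mpeg1 (0.99), and for C1qb they included Csf1r (0.99) and Tyrobp (0.99). C1qc was nearest to Tyrobp (0.99), Fcrl2 (0.99) and Csf1r (0.99). C3ar1 was nearest to Ccl4 (0.99), Cd83 (0.99) and Spi1 (0.99), C5ar1 to Cd14 (0.98), Adgre1 (0.98) and Inpp5d (0.98), and Itgam to Ctss (0.99), Csf1r (0.99) and C1qc (0.99). For C3 they were Tnfrsf14 (0.94), Fblim1 (0.94) and Gm40645 (0.94). C4b had no close match, with Ezr (0.82), Gm21399 (0.80) and Prdx1 (0.80), and Serping1 was nearest to Dcn (0.80), Col26a1 (0.78) and Gm38312 (0.78). Among themselves, C1qa, C1qb, C1qc, C3ar1, C5ar1 and Itgam had r of 0.95 to 0.99, while C4b and Serping1 had r of -0.45 with each other.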

How the data were processed

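Whole-transcriptome RNA was amplified, sequenced as paired reads and, per the labels and the study's methods, mapped by the authors with STAR 2.7.8a to GRCm39 and counted per Ensembl gene with HTSeq. Counting mode and strand setting are not given in the sources used here. The deposited values are raw counts for 55416 genes in 43 libraries; rows that name no gene were left out of library sizes. CPM was computed from the counts. The 9 genes and all lists were chosen with earlier results of these data known.

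Genotype and sex were tested in each cell type with edgeR 4.0.16 (R 4.3.3; glmQLFit, TMM, filterByExpr with a minimum count of 10, sex and genotype as terms), and cell types and the interaction in a joint fit, with Benjamini-Hochberg adjustment over all genes tested and calls at an adjusted p under 0.05. Counts per microglia marker count, with 0.5 added, were compared by permutation. Each library is a separate mouse within a cell type. Genes named from the wider list were at most 3 a role, by a rule on called differences between cell types. Gene positions came from GENCODE M39, which held 54749 of the identifiers. Alternatives were DESeq2 1.42.0, other library sizes, no filter, control libraries alone, a replicate block and leaving out replicates. The block was the littermate pair within a cell type and the mouse in the joint fit. The scripts were tested on simulated counts. Littermate pairs came from the labels: within a cell type, deviations of littermates had a mean correlation of 0.083 (microglia), 0.121 (astrocytes), 0.1035 (OPCs) and 0.0995 (oligodendrocytes). For mice of different pairs it was -0.0169, -0.0232, -0.0205 and -0.0328. Some genes of these lists are not reported here.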

Additional observations from a re-analysis of the deposited data

Results flagged for a closer look

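Of 71 combinations of gene and group of 4 to 6 libraries, 22 held a library standing apart from the others of its group by Dixon's test, which chance alone does in about 1 in 20 groups. Of these 22 libraries, 18 were from littermate pair 3, and their values are not independent, since the same libraries recur from gene to gene. In OPCs, the pair 3 control was high for C1qa (103.6 CPM) and C1qc (232 CPM), and the pair 3 Rag2-/- library for C1qb (285), C1qc (238), C3ar1 (205), C5ar1 (78.0) and Itgam (141). In astrocytes, the pair 3 control was high for C1qb (74.5 CPM), C3ar1 (30.4) and C5ar1 (17.1), and the pair 3 Rag2-/- library for C1qa (17.3), C1qb (48.4) and C1qc (36.6). In oligodendrocytes, the pair 3 control was high for C3 (14.97 CPM) and Itgam (134), and the pair 3 Rag2-/- library for C4b (31.4), C3ar1 (156) and C5ar1 (77.6).

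The other 4 values were low counts or stood alone. C3 was high in the Rag2-/- astrocytes of pair 6 (1.303 CPM, 14 counts) and low in the Rag2-/- microglia of pair 4 (17.3 CPM). Serping1 was high in the Rag2-/- oligodendrocytes of pair 6 (1.69 CPM, 23 counts) and low in the control astrocytes of pair 1 (0.11 CPM, 1 count).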

How the results depend on the processing

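No genotype call among the 9 genes was made under any alternative, in any cell type. Without the filter on low counts, 4 genes were called by sex in OPCs, 1 by sex in astrocytes and 1 by the interaction, against 0 in each with it. Between OPCs and oligodendrocytes, 4 genes were called, 1 with total counts as library size, 1 with mitochondrial genes left out of it and 8 without the filter. There Itgam went from -0.89 to 0.11 with total counts. With control libraries alone, C3 went from 0.11 to -3.85 for astrocytes against oligodendrocytes and from 1.05 to -3.50 for OPCs against oligodendrocytes, where 1 control library held most of the counts and C3 was otherwise too low for its fitted values to be read. Per microglia marker count, oligodendrocytes had 3 called genes, and 2 to 5 when replicates were left out in turn, with 5 without replicate 3. With the littermate pair as a block within each cell type, 0 genes were called by genotype. The joint fit had the mouse as a block, and there 0 were called by the interaction. Between cell types 8, 9, 7, 8, 7 and 5 were then called, in the order given in the report. The added one was C1qb between OPCs and oligodendrocytes. In the paired test per marker count 2, 4 and 5 were called in oligodendrocytes, OPCs and astrocytes. Of the single-gene values under alternatives, 1942 kept their direction or stayed uncalled, 16 lost and 24 gained a call, and 3 reversed. Uncalled genotype differences changed sign in 17 of 105 values in oligodendrocytes, 37 of 144 in OPCs, 22 of 133 in astrocytes and 10 of 171 in microglia. Over all genes, the genotype test in oligodendrocytes called 0 genes in edgeR, 14 without the filter and 206 in DESeq2, and the sex test there 5, 99 and 422. In OPCs, astrocytes and microglia the genotype test called 1 gene each in edgeR, 90, 30 and 9 without the filter and 5, 1 and 3 in DESeq2, and the sex test 5, 6 and 7, against 72, 118 and 25 and 13, 19 and 11. The interaction called 53 genes, 1011 without the filter, 28 with total counts as library size and 5 with the mouse as a block. Depth limits C3 outside microglia and Serping1 in astrocytes and oligodendrocytes, where some libraries had 0 or 1 count. Other causes of these shifts were not tested.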
